A study of Homo sapiens with 12 samples.

Results

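The comparison set 3 arrays of HCT116 cells in which Wip1 had been depleted by a short hairpin RNA (Wip1SH) against 3 arrays of parental HCT116 cells (WT), both grown without inhibitor. These 6 arrays of the 12 in the series were chosen by their sample labels alone. HCT116 is a human colorectal carcinoma line, and the design text describes the 3 samples of each group as biological replicates. The other 6 arrays hold Wip1SH+ATMi and WT+ATMi cells, the same lines after 3 days with 10 µM of an ATM inhibitor (ATMi) renewed every day, 3 arrays each, and they were used to ask whether the effect of depletion was the same with ATM inhibited. No group carries a control hairpin, so each difference between Wip1SH and WT also holds whatever else separates the lines. The hairpin sequence, the number of clones behind Wip1SH and any vehicle for the untreated cells are not given in the sources used here.

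Wip1 is the product of PPM1D, a serine/threonine phosphatase of the metal-dependent PPM family. p53 switches PPM1D on after DNA damage, and Wip1 then removes phosphate groups from p53 itself, from ATM, from the checkpoint kinases and from histone H2AX, which closes a negative feedback loop and lets cells leave the checkpoint. HCT116 cells are known to carry a truncating PPM1D allele. A loss of Wip1 is therefore usually examined through the targets of p53, such as CDKN1A, and through the genes of DNA replication and mitosis, which p53 and the retinoblastoma pathway hold down.

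Values below are log2 probe signals after background correction and quantile normalization, and 1 unit is a 2-fold difference. Each gene stands for its brightest kept probe, so levels of different genes are not compared. Differences are Wip1SH minus WT, in log2, with the standard error after ± (n = 3 arrays per group), and each adjusted p comes from limma with Benjamini-Hochberg adjustment over 11785 genes. A gene is said to rise or fall where that adjusted p was under 0.05. Arrays within a group correlated at 0.9932 to 0.9945 in Wip1SH and 0.9909 to 0.9918 in WT, against 0.9799 to 0.983 between the groups. Wip1SH arrays detected more probes, 18568 to 18961, against 17650 to 17929 on WT arrays, so that group and array brightness move together. Their parts in the results were examined by adding the number of detected probes to the fit and by scaling all arrays to equal medians. Those values stand beside the main gene groups. Of 93 counts made over gene lists, 68 moved with equal medians over all probes and 68 with detected probes in the fit. Counts of lists printed below without those values come from the main fit alone and should not be read as stable. Of 6 measured colon epithelial markers EPCAM, which marks epithelial cell surfaces, rose by 0.28 and KRT8, a simple-epithelium keratin, fell by 0.41, while CDX2, CDH1, KRT18 and KRT19 did not pass the test. Leaving out 1 array (Wip1SH 2 or 3, or WT 2 or 3) ended the call of EPCAM. Of 11 markers of blood, vessel and connective tissue cells 3 were tested. CD68, a lysosomal protein of macrophages, rose (0.97 ± 0.10), COL1A1 fell (-0.50 ± 0.10) and DCN did not pass the test. The defining blood cell markers PTPRC, CD3E, LYZ and HBB, the vessel markers PECAM1 and CDH5 and the collagens COL1A2 and COL3A1 were detected on too few arrays to be tested.

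The hairpin's target was lower in every Wip1SH array. PPM1D signal was 8.74, 8.43 and 8.87 in Wip1SH, against 10.28, 10.43 and 10.31 in WT. The groups did not overlap, and the difference was -1.66 ± 0.10 (adjusted p = 2.57e-06), or 3.17-fold lower in Wip1SH. Such a separation was common, since all 3 Wip1SH arrays lay below all 3 WT arrays for 21.3% of genes and above them for 23.6%. Only 6 of 11785 genes had a more negative difference. The test called 1976 genes higher in Wip1SH (16.8%) and 1818 lower (15.4%), 32.2% of all genes tested. Most of these differences were small: the median size was 0.44 for the genes that rose and 0.44 for those that fell. At least a 2-fold change was reached by 63 genes that rose (0.535%) and 52 that fell (0.441%). The balance of the directions rested on the scaling. With arrays set to equal medians over all probes the median over the genes tested was 0.24, and 3826 genes were higher and 342 lower. With the number of detected probes in the fit, 457 were higher and 429 lower.

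**Figure D1:**
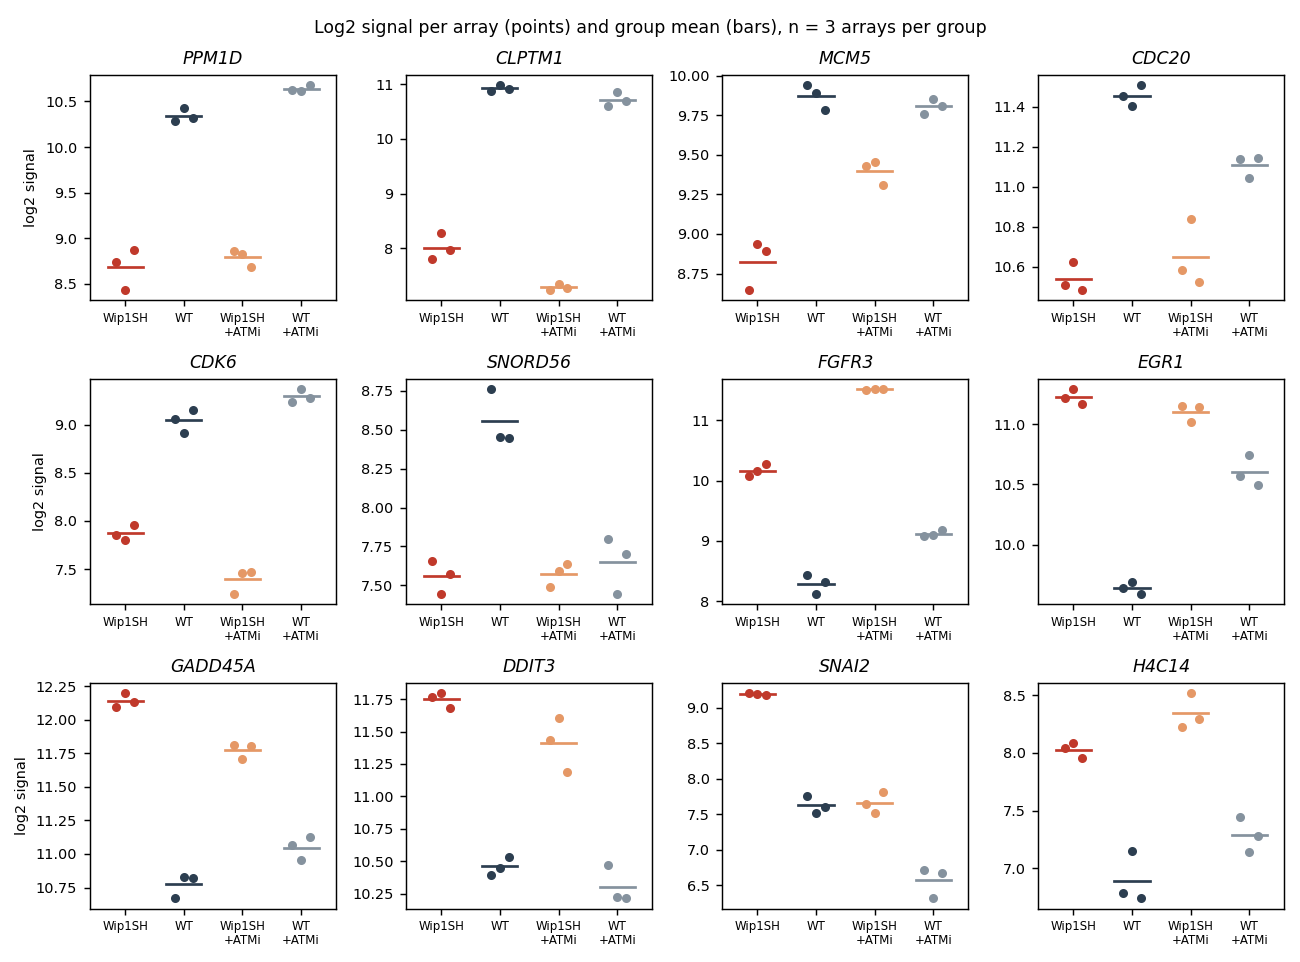
Log2 signal of 12 genes on each of the 12 arrays, in the order Wip1SH, WT, Wip1SH+ATMi and WT+ATMi; points are arrays and bars are group means. PPM1D, CLPTM1, MCM5, CDC20, CDK6 and SNORD56 lie lower and FGFR3, EGR1, GADD45A, DDIT3, SNAI2 and H4C14 higher on all 3 Wip1SH arrays than on all 3 WT arrays.

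PPM1D belongs to a list of 17 PPM1 phosphatases and close relatives, of which 13 were measured, 2 rose and 6 fell. PPM1B signal was 9.49, 9.53 and 9.55 in Wip1SH, against 8.75, 8.93 and 8.85 in WT. The 3 Wip1SH arrays were all above the WT arrays, and the difference of PPM1B, a broad PP2C phosphatase, was 0.68 ± 0.07 (adjusted p = 7.52e-05), with 0.78 and 0.80 on its dimmer probes. PPM1A, its closest relative, rose by 0.45, although leaving out Wip1SH 1 or Wip1SH 2 ended that call. PPM1G (-0.36), PPM1F (-0.40), TAB1, a pseudophosphatase partner of the kinase TAK1 (-0.40), PPM1K (-0.41) and PPM1H (-0.45) fell, the calls of the last 3 being lost when 1 array (among Wip1SH 1 to 3 and WT 1 to 3) was left out. The PPM1D difference was the most negative of the list, whose median was -0.28.

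Members of a list of genes that p53 switches on rose or did not pass the test, and none fell. PPM1D, which p53 also switches on, is the target of the hairpin and was not on this list. Of 36 measured p53 targets 15 rose and 0 fell, against 16.8% and 15.4% of all genes, and the median difference of the list was 0.27, against 0.01 over all genes. GADD45A, a growth arrest gene shared by p53 and stress pathways, had the largest difference among them. Its signal was 12.09, 12.20 and 12.14 in Wip1SH, against 10.67, 10.83 and 10.82 in WT. All 3 Wip1SH arrays lay above all 3 WT arrays, and the difference was 1.37 ± 0.08 (adjusted p = 8.78e-07). BLOC1S2, a lysosome-positioning subunit, rose by 0.98 on its brightest probe, while a dimmer probe gave -0.12. The sestrins SESN2 (0.90 ± 0.13) and SESN1 (0.67 ± 0.08), which restrain mTORC1, rose, as did PHLDA3, an inhibitor of AKT (0.76 ± 0.09), TP53INP1, a cofactor of p53 (0.72 ± 0.09), and GDF15, a secreted stress cytokine (0.53 ± 0.10). Death receptor genes TNFRSF10A (0.53) and TNFRSF10B (0.59) and the BH3-only genes PMAIP1, encoding Noxa (0.63), and BBC3, encoding Puma (0.47), were also higher.

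The 2 targets most often used to read p53 were not among them. CDKN1A, encoding the CDK inhibitor p21, was 14.89, 14.86 and 14.88 in Wip1SH, against 14.81, 14.77 and 14.91 in WT, and the groups overlapped (0.05 ± 0.08, adjusted p = 0.672). A dimmer CDKN1A probe averaged 8.42 in Wip1SH and 7.84 in WT, a difference of 0.58, and with the mean of both probes in place of the brightest CDKN1A rose by 0.31 (adjusted p = 0.00322). MDM2, the ubiquitin ligase that degrades p53, was 6.74, 6.43 and 6.45 in Wip1SH, against 6.47, 6.44 and 7.06 in WT, again with overlap (-0.11 ± 0.16, adjusted p = 0.614). With the number of detected probes in the fit 9 of the 36 targets rose, against 457 of all 11785 genes. With equal medians over all probes 25 rose, against 3826 of all 11785 genes.

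Wip1 acts on proteins, and the share of its substrates whose transcripts passed the test, 3 of 10, was close to the 32.2% of all genes. Only the repair factor XPC rose (0.45 ± 0.08), while CHEK1, the kinase of the replication checkpoint (-0.49 ± 0.10), and the uracil glycosylase UNG (-0.21) fell, and the UNG call was lost when any 1 of the 6 arrays was left out. ATM was 7.78, 7.70 and 7.62 in Wip1SH, against 7.72, 7.18 and 7.66 in WT, with overlapping groups (0.18 ± 0.17, adjusted p = 0.462). Of 18 checkpoint signalling genes 3 (16.7%) fell, close to the 15.4% of all genes, and 0 rose. These were CHEK1 and the CDK-activating phosphatases CDC25A and CDC25B. CDC25A signal was 7.29, 7.43 and 7.42 in Wip1SH, against 8.04, 8.47 and 8.44 in WT, without overlap (-0.94 ± 0.12, adjusted p = 0.000228). CDC25B differed by -0.76 ± 0.09. Of 18 recombination and crosslink repair genes 7 fell, among them RAD54L, a motor of homologous recombination (-0.49), and the helicase BLM (-0.50), and RMI2 alone was called higher (0.26), a call that leaving out any of 5 arrays (Wip1SH 2 or 3, WT 1, 2 or 3) ended. Among 14 measured BCL2 family genes 5 rose, including PMAIP1, BBC3 and the pore-forming BAK1 (0.84 ± 0.22), and 1 fell.

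Many DNA replication genes were lower, and not one was called higher. Of 43 measured genes 24 fell, with a median of -0.28, against 15.4% of all genes. In arrays of whole cultures, fewer cycling cells and less RNA per cell cannot be told apart. The helicase that unwinds DNA at the fork is built from MCM2 to MCM7, CDC45 and the GINS proteins. MCM5 signal was 8.65, 8.94 and 8.89 in Wip1SH, against 9.94, 9.89 and 9.79 in WT. Every Wip1SH array lay below every WT array, and the difference was -1.05 ± 0.09 (adjusted p = 1.97e-05). The GINS subunit GINS3 gave 6.79, 7.05 and 7.05 in Wip1SH, against 8.31, 8.30 and 8.43 in WT, again without overlap (-1.38 ± 0.12, adjusted p = 1.97e-05). MCM2 (-0.79), MCM3 (-0.60), MCM4 (-0.60), MCM6 (-0.51) and MCM7 (-0.42), GINS2 (-0.68) and CDC45 (-0.59) fell too. POLD1, the catalytic subunit of the lagging-strand polymerase delta, was 7.28, 7.42 and 7.20 in Wip1SH, against 8.22, 8.67 and 8.05 in WT, a difference of -1.02 ± 0.13 (adjusted p = 0.000246). RFC5, a subunit of the clamp loader, fell by 0.70. Nucleotide synthesis followed the same pattern, with 7 of 14 genes lower and 0 higher, including CAD, which starts pyrimidine synthesis (-0.66), and TK1, thymidine kinase (-0.50). With detected probes in the fit 13 of the 43 replication genes fell, against 429 of all 11785 genes. With equal medians over all probes 8 fell, against 342 of all 11785 genes.

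Mitotic genes showed the largest share of falls among the cell cycle lists. Of 59 measured genes 40 fell and 0 rose, with a median of -0.38. CDC20, the activator of the anaphase-promoting complex, was 10.51, 10.62 and 10.49 in Wip1SH, against 11.46, 11.40 and 11.51 in WT. Here also the groups stood apart (-0.92 ± 0.09, adjusted p = 4.58e-05). KIF20A, a kinesin of the central spindle, was 7.99, 7.84 and 8.04 in Wip1SH, against 8.80, 8.97 and 9.01 in WT (-0.97 ± 0.11, adjusted p = 0.0001). KIF23, its partner in cytokinesis, was 7.89, 7.69 and 7.64 in Wip1SH, against 8.74, 8.53 and 8.50 in WT (-0.85 ± 0.10, adjusted p = 0.000104), and a dimmer probe gave -0.58. The mitotic cyclin CCNB1 (-0.68), the kinases PLK1 (-0.62), AURKB (-0.67) and BUB1 (-0.63), the transcription factor FOXM1 (-0.63) and topoisomerase TOP2A (-0.56) moved the same way. With detected probes in the fit 15 of the 59 fell, against 429 of all 11785 genes. With equal medians over all probes 8 fell, against 342 of all 11785 genes.

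The promoters of CDC20 and KIF23 are printed because mitotic genes are known to be repressed through the cell cycle homology region (CHR), a short element bound by the DREAM and MuvB complexes that p53 and p21 act through. RefSeq promoters (GRCh38.p14) were searched from 250 bases before to 50 after the start for the letters TTTGAA on either strand, and 9438 of the 11785 genes had a promoter in the table. The letters stood in 35 of 50 mitosis promoters (70%), against 9.95% of the promoters of all genes tested and 15.4% of all 27305 promoters. None of 37 DNA replication promoters held them. The letters CCAAT, on either strand, stood in 80% of the mitosis promoters and in 36.9% of those of all genes tested. The E2F letters GCGCGAAA stood in 13.5% of replication promoters, in 2% of mitosis promoters and in 1.09% of those of all genes tested. Promoters of all genes that fell in Wip1SH held TTTGAA in 11% of cases and those of genes that rose in 9.91%. CDC20 and KIF23 were picked, in order of p among the mitosis genes that fell, for holding these letters before the start. They therefore do not stand for the list. The bases below end just before the annotated start, on the + strand, and capitals mark TTTGAA or its complement TTCAAA.
CDC20: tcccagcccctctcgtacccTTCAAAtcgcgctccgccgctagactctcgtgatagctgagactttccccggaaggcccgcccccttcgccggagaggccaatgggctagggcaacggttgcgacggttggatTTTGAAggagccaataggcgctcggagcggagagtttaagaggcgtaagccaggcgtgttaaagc
KIF23: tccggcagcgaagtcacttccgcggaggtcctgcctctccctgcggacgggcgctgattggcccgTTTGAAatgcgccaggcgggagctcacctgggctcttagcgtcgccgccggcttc
In CDC20 (chr1:43358783-43358980) the sites begin 178 and 65 bases before the start, the first on the opposite strand, and in KIF23 (chr15:69414229-69414348) the site begins 55 bases before it. Each match describes letters in these windows, and binding was not tested. No printed site here or below overlapped a match of another motif searched.

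Outside S phase and mitosis the cell cycle genes called went both ways, in shares nearer those of all genes. Of 20 G1 cyclins, their kinases and E2F genes 3 rose (15%) and 5 fell (25%), against 16.8% and 15.4% of all genes. CDK6, a cyclin D kinase that phosphorylates the retinoblastoma protein, was 7.85, 7.80 and 7.96 in Wip1SH, against 9.06, 8.91 and 9.15 in WT, without overlap (-1.17 ± 0.09, adjusted p = 1.24e-05). E2F2, an activating E2F factor, fell by 0.75 and SKP2, which marks p27 for destruction, by 0.54. Among 6 measured CDK inhibitor genes only CDKN2A passed the test (-0.72 ± 0.10), and it fell, a share (16.7%) near that of all genes. MYC was 11.74, 11.68 and 11.88 in Wip1SH, against 12.15, 12.05 and 12.12 in WT, lower on all 3 Wip1SH arrays (-0.34 ± 0.09, adjusted p = 0.0112), a call lost with equal medians over all probes.

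Tubulins and histones went opposite ways. Of 12 measured tubulins 8 fell and 1 rose, with a list median of -0.34. TUBB, a widely expressed beta-tubulin, was 11.38, 11.44 and 11.33 in Wip1SH, against 11.85, 11.88 and 12.06 in WT (-0.55 ± 0.08, adjusted p = 0.000414), and TUBB2A (-0.44), TUBA1B (-0.40) and TUBB3 (-0.44) fell as well, and all 4 of these calls were lost with equal medians over all probes. STMN1, the microtubule-destabilising protein stathmin, was 8.05, 8.19 and 8.29 in Wip1SH, against 9.79, 9.59 and 9.61 in WT, among the 25 largest falls (-1.49 ± 0.10, adjusted p = 5.96e-06). Its 2 dimmer probes gave -0.93 and 0.39. Replication-dependent histone genes, which are transcribed in S phase and end in a stem-loop in place of a poly(A) tail, rose in 8 of 16 cases and fell in 1, with a median of 0.45. H4C14, one of several genes for histone H4, was 8.04, 8.09 and 7.95 in Wip1SH, against 6.79, 7.14 and 6.74 in WT. All 3 Wip1SH arrays were above all 3 WT arrays (1.14 ± 0.12, adjusted p = 7.77e-05). H2BC21 (0.94 ± 0.08), H2AC6 (0.89 ± 0.08), H2AC11 (0.88 ± 0.09) and H3C10 (0.81 ± 0.17) rose too. These genes belong to families of near-identical copies, so each value may hold signal from relatives. The chaperones that load histones fell over the same arrays: ASF1B by 0.83 and CHAF1A by 0.68, within a list of 18 variants and chaperones of which 9 fell and 0 rose. UHRF1, which recruits the maintenance methyltransferase, fell by 0.87 and DNMT1 by 0.41, as 2 of the 4 among 9 measured DNA methylation genes that fell. Polycomb genes stayed near the share of all genes, with 4 of 22 higher (18.2%) and 3 lower (13.6%). CBX2, a chromodomain subunit of the repressive complex, had the largest difference there (-1.005 ± 0.10).

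**Figure D2:**
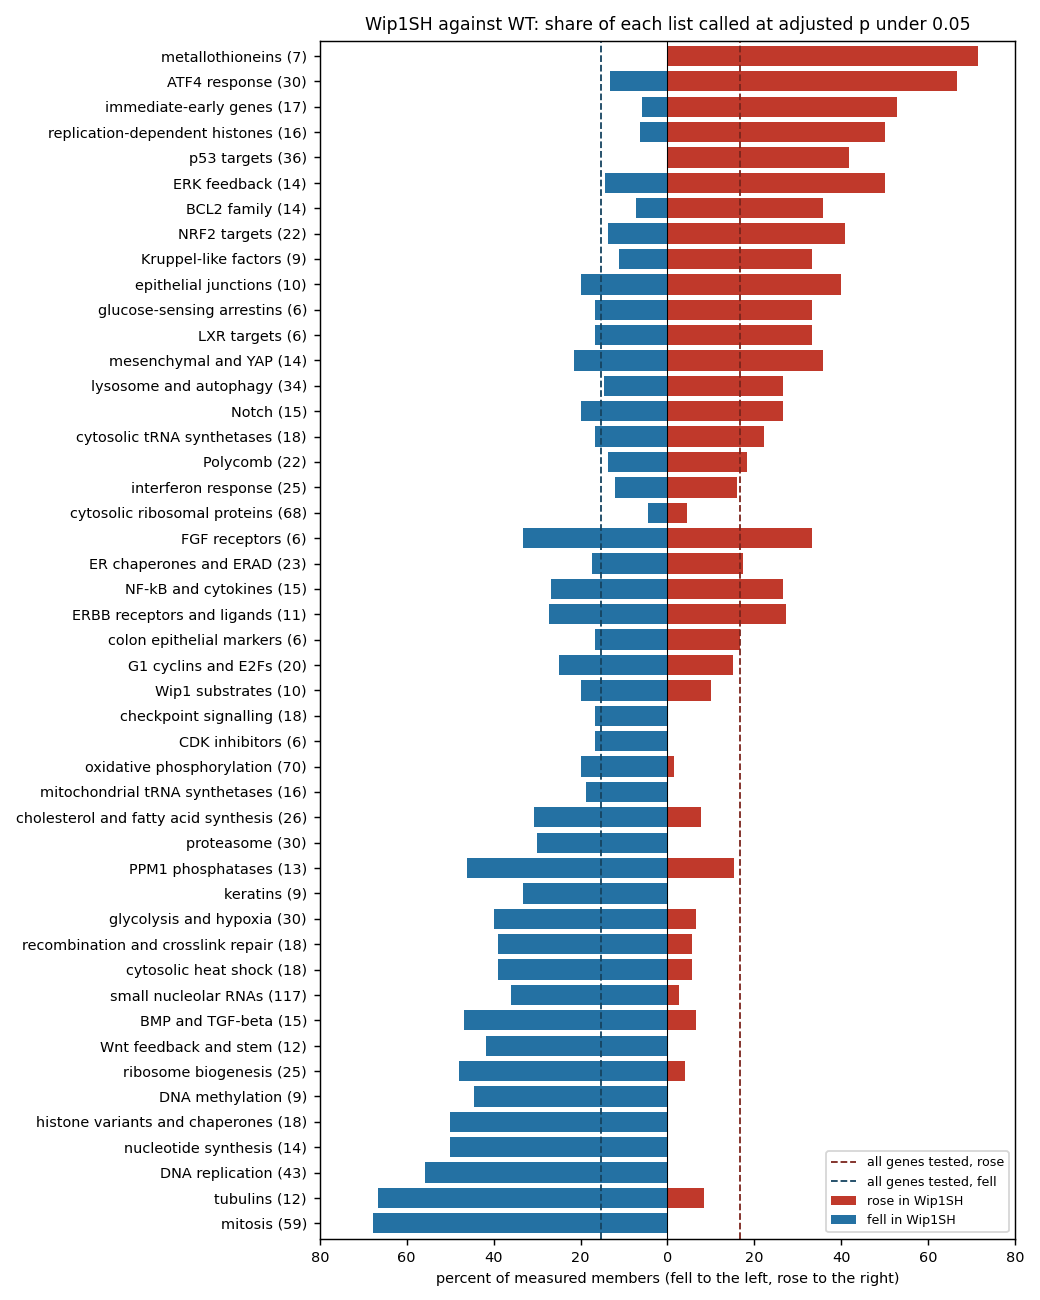
Percent of the measured members of each gene list that rose (red, to the right) or fell (blue, to the left) in Wip1SH against WT; dashed lines give the same percentages over all 11785 genes (16.8% and 15.4%) and the count after each name is the number measured. Mitosis (40 of 59), DNA replication (24 of 43) and tubulins (8 of 12) reach far to the left and metallothioneins (5 of 7) and the ATF4 response (20 of 30) far to the right.

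The amino acid stress response driven by ATF4, the transcription factor translated when eIF2 alpha is phosphorylated, rose more widely than any other list of 30 or more measured genes. Of its 30 genes 20 rose and 4 fell, with a median of 0.42. DDIT3, encoding CHOP, was 11.77, 11.80 and 11.68 in Wip1SH, against 10.39, 10.45 and 10.54 in WT. The groups did not overlap (1.29 ± 0.11, adjusted p = 1.97e-05). CHAC1, which breaks down glutathione, was 8.22, 8.32 and 8.20 in Wip1SH, against 7.42, 6.98 and 7.05 in WT (1.10 ± 0.11, adjusted p = 5.74e-05). CREBRF, a regulator of the unfolded protein response, was 7.50, 7.61 and 7.68 in Wip1SH, against 6.03, 5.78 and 6.16 in WT (1.60 ± 0.11, adjusted p = 6.63e-06), with 1.21 on a dimmer probe. Further members were TRIB3, a pseudokinase that feeds back on ATF4 (0.90), CEBPG, its dimerisation partner (0.95), PPP1R15A, the regulatory subunit of the eIF2 alpha phosphatase (1.07), ASNS, asparagine synthetase (0.45), and ATF4 itself (0.38). Of the other probes of ATF4 1 gave -0.36 and another 0.43, and its call was lost with the mean of its probes. CTH (-0.60) and PHGDH (-0.37), enzymes of cysteine and serine synthesis, were among the 4 that fell. With detected probes in the fit 14 of the 30 rose, within 1.5 times of the main count, against 457 of all 11785 genes.

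The CHAC1 promoter is shown because it was the 1 ATF4-response promoter of 26 (3.85%) that held TGATGCAA on either strand. These letters of the CEBP-ATF response element stood in 0.583% of the promoters of all genes tested, and other forms of it were not searched. The line gives chr15:40953242-40953470, + strand, GRCh38.p14, up to the base before the start, and capitals mark the site, read on the opposite strand and beginning 209 bases before the start.
CHAC1: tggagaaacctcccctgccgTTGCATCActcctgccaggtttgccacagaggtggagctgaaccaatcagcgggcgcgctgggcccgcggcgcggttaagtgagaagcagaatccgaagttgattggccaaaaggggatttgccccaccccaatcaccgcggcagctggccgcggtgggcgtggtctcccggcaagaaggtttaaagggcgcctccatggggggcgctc

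Neighbouring stress programmes did not follow as a block. Cytosolic tRNA synthetases, many of them ATF4 targets, rose in 4 of 18 cases, with AARS1 (0.36) and GARS1 (0.32) among them, and fell in 3. These shares (22.2% and 16.7%) were near those of all genes (16.8% and 15.4%). IARS1, the isoleucyl enzyme, was 10.51, 10.42 and 10.39 in Wip1SH, against 11.43, 11.48 and 11.55 in WT, the lowest difference of its list (-1.05 ± 0.09, adjusted p = 1.97e-05). The endoplasmic reticulum list was even, with 4 of 23 higher and 4 lower (17.4% each), also near the shares of all genes. The sensor ATF6 (0.69 ± 0.07), the transcription factor XBP1 (0.60 ± 0.08) and its target DNAJB9 (0.58 ± 0.09) rose, while CRELD2, a secreted chaperone, fell (-0.61 ± 0.09). The letters CCACG, on either strand, part of the endoplasmic reticulum stress element, stood in 72.7% of the 22 promoters of this list in the table, against 49.9% of those of all genes tested. Heat shock genes fell in 7 of 18 cases and rose in 1. HSPE1, the co-chaperonin of mitochondria, differed by -0.76 ± 0.11 and HSPA8, the constitutive chaperone, by -0.55 ± 0.09. Oxidative and metal stress genes leaned upward. Of 22 NRF2 targets 9 rose and 3 fell, led by the haem-degrading HMOX1 (0.98 ± 0.07) and the reductase AKR1B10. AKR1B10 signal was 9.81, 9.66 and 9.82 in Wip1SH, against 8.99, 8.97 and 8.91 in WT, without overlap (0.81 ± 0.07, adjusted p = 3.32e-05). Among 7 metallothionein and zinc genes 5 rose, with MT1G (0.73 ± 0.10) and the zinc exporter SLC30A1 (0.60 ± 0.09) first.

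Immediate-early genes, which growth factor and stress kinases switch on within minutes, rose in 9 of 17 cases and fell in 1, with a median of 0.37. EGR1, a zinc-finger transcription factor induced through ERK and serum response factor, was 11.21, 11.29 and 11.17 in Wip1SH, against 9.64, 9.69 and 9.59 in WT. Between the lowest Wip1SH array and the highest WT array lay a clear gap (1.58 ± 0.08, adjusted p = 4.41e-07). FOS, a subunit of AP-1, was 6.74, 6.76 and 6.95 in Wip1SH, against 6.20, 5.98 and 5.23 in WT (1.01 ± 0.19, adjusted p = 0.00269), a call lost with detected probes in the fit. JUN (0.52) and the MAP kinase phosphatase DUSP1 (0.89 ± 0.08) rose as well. The EGR1 promoter is printed because it was the only immediate-early promoter of 14 (7.14%) to hold CCATATTA on either strand. These letters, 1 form of the CArG box of serum response factor, stood in 0.297% of the promoters of all genes tested. Other forms of the box were not searched, so they were not counted in this promoter or the others. The bases are chr5:138465354-138465478, + strand, GRCh38.p14, and the capitals begin 105 bases before the start.
EGR1: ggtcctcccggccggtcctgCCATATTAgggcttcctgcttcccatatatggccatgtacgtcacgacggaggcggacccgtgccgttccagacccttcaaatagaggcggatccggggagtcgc

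Of 14 genes that report ERK activity 7 rose and 2 fell, with a median of 0.16. Among those that rose were the ERK phosphatases DUSP4 (0.62), DUSP5 (0.44) and DUSP6 (0.41). FGFR3, a fibroblast growth factor receptor tyrosine kinase, was 10.07, 10.15 and 10.28 in Wip1SH, against 8.44, 8.12 and 8.32 in WT. No Wip1SH array came near a WT array, and the difference was 1.88 ± 0.09 (adjusted p = 3.2e-07), against 0.40 on a dimmer probe whose means were 6.28 in Wip1SH and 5.87 in WT. FGF9, a ligand of that receptor, fell: 7.70, 7.93 and 7.89 in Wip1SH, against 8.71, 8.71 and 8.72 in WT (-0.88 ± 0.08, adjusted p = 2.63e-05). In the ERBB list 3 of 11 rose and 3 fell (27.3% each, against 16.8% and 15.4% of all genes). The ligands HBEGF (0.51 ± 0.07) and TGFA (0.52 ± 0.08) were higher and the receptor ERBB2 (-0.57 ± 0.09) and the feedback inhibitor ERRFI1 (-0.46 ± 0.09) lower.

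Signals of development were mixed by pathway. Of 15 BMP and TGF-beta genes 7 fell, 1 rose and 7 did not pass the test. ID2, an inhibitor of differentiation factors and a direct SMAD target, was 8.93, 9.01 and 8.72 in Wip1SH, against 9.98, 9.94 and 9.59 in WT (-0.95 ± 0.14, adjusted p = 0.000467). SMAD6, the inhibitory SMAD, was not detected on any Wip1SH array and was 5.14, 5.36 and 5.36 in Wip1SH, against 6.11, 5.96 and 6.37 in WT, at least 1.52-fold lower in Wip1SH (adjusted p = 0.000458), and this call too was lost with detected probes in the fit. BAMBI, a decoy receptor, fell by 0.61. The 1 that rose was the homeobox gene MSX2, with 9.43, 9.25 and 9.27 in Wip1SH, against 7.86, 7.59 and 7.81 in WT (1.56 ± 0.12, adjusted p = 8.85e-06), while its relative MSX1 fell by 0.46. Wnt feedback genes fell in 5 of 12 cases and rose in 0. RNF43, the ligase that removes Frizzled receptors, differed by -1.01 ± 0.12, AXIN2, a scaffold of the destruction complex, by -0.69 ± 0.10 and NOTUM, which inactivates Wnt ligands, by -0.62 ± 0.12. Notch genes went both ways, 4 of 15 higher (26.7%) and 3 lower (20%), against 16.8% and 15.4% of all genes. LFNG, a glycosyltransferase that tunes Notch receptors, was 5.47, 5.77 and 6.29 in Wip1SH, against 7.43, 7.44 and 7.45 in WT (-1.60 ± 0.16, adjusted p = 5.54e-05), although a dimmer probe gave -0.07. HEY1, a Notch target, rose by 0.91 on its brightest probe, against -0.18 on another. In the NF-kB and cytokine list 4 of 15 rose and 4 fell (26.7% each). The chemokine gene CXCL8 was 8.26, 8.37 and 8.50 in Wip1SH, against 7.34, 7.32 and 7.33 in WT (1.04 ± 0.07, adjusted p = 7.07e-06). IL32, a cytokine gene without a detected probe in Wip1SH, fell at least 2.89-fold (adjusted p = 3.2e-07). Interferon response genes stayed near the share of all genes, with 4 of 25 higher and 3 lower.

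SNAI2, the transcription factor Slug that represses epithelial genes during epithelial-mesenchymal transition, was 9.21, 9.19 and 9.19 in Wip1SH, against 7.76, 7.51 and 7.60 in WT. All Wip1SH arrays were above all WT arrays (1.57 ± 0.12, adjusted p = 7.73e-06), and a dimmer probe gave 1.03. The rest of the mesenchymal and YAP list showed no common direction, with 5 of 14 higher and 3 lower. The LIM protein AJUBA rose by 0.61, while the matrix protein gene THBS1 (-0.63 ± 0.10) and the actin-binding TAGLN (-0.63 ± 0.13) fell. Epithelial junction genes rose in 4 of 10 cases and fell in 2. Those that rose included CLDN7 (0.59 ± 0.09) and the splicing factor ESRP1 (0.62 ± 0.13). KLF4, a factor of differentiated gut epithelium and of reprogramming, rose by 0.76 ± 0.08 (adjusted p = 7.61e-05) and KLF3 by 0.71 ± 0.18. Of 11 pluripotency and stemness genes only KLF4 and PODXL (-0.49 ± 0.09) were tested, and the others are not analysed here.

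**Figure D3:**
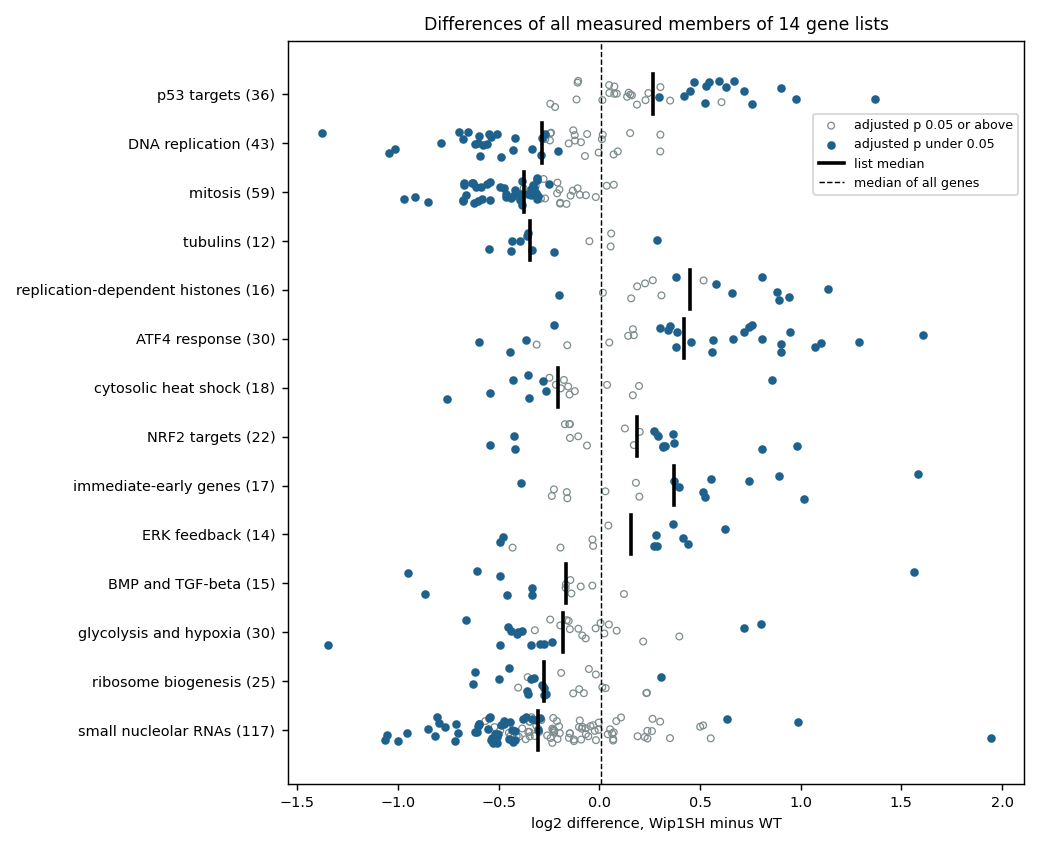
Difference Wip1SH minus WT in log2 for every measured member of 14 gene lists, 1 point per gene, filled where the adjusted p was under 0.05; the short bar is the list median and the dashed line the median of all genes (0.01). Mitosis has no filled point to the right of 0 and p53 targets none to the left.

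Metabolic lists did not all lean the same way. Glycolysis and hypoxia genes fell in 12 of 30 cases (40%) and rose in 2 (6.67%), against 15.4% and 16.8% of all genes. SLC2A3, the high-affinity glucose transporter GLUT3, was 6.76, 6.90 and 6.52 in Wip1SH, against 8.003, 8.06 and 8.16 in WT (-1.35 ± 0.11, adjusted p = 1.97e-05). GPI, which follows hexokinase in the pathway, differed by -0.66 ± 0.08, and ANGPTL4, a secreted lipase inhibitor, rose by 0.80. ARRDC4, an arrestin-domain gene that the glucose sensor MondoA switches on, was 8.71, 8.83 and 8.82 in Wip1SH, against 7.37, 7.22 and 7.16 in WT (1.54 ± 0.11, adjusted p = 8.67e-06). ARRDC3, its relative, was not detected on any WT array and was at least 1.69-fold higher in Wip1SH (adjusted p = 0.000382). Cholesterol and fatty acid synthesis genes fell in 8 of 26 cases (30.8%) and rose in 2 (7.69%). MVD, the mevalonate decarboxylase (-0.84 ± 0.13), was lowest and SC5D, a sterol desaturase (0.59 ± 0.09), highest. ABCA1, the pump that exports cholesterol, was 7.61, 7.41 and 7.49 in Wip1SH, against 6.23, 6.08 and 6.08 in WT (1.37 ± 0.10, adjusted p = 7.07e-06). Lysosome and autophagy genes rose in 9 of 34 cases (26.5%) and fell in 5 (14.7%). The autophagosome protein gene MAP1LC3B rose by 0.86, and ATG16L1, which helps to attach it to membranes, fell by 0.66.

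Ribosomal protein genes were even, 3 of 68 higher and 3 lower, with a median of -0.00. Ribosome biogenesis genes, many of them MYC targets, fell in 12 of 25 cases and rose in 1 (median -0.27), and the methyltransferase of box C/D particles, FBL, differed by -0.63 ± 0.09. Oxidative phosphorylation subunits fell in 14 of 70 cases (20%), not far from the 15.4% of all genes. They rose in 1 (1.43%), against 16.8% of all genes. Proteasome subunits fell in 9 of 30 cases and rose in 0, led by PSMA4, a subunit of the core ring (-0.39 ± 0.07).

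Small nucleolar RNAs (snoRNAs) are short guides that direct methylation and pseudouridylation of ribosomal RNA, and most are cut from introns of host genes. Of 301 on the list 117 were bright enough to test, and 42 fell while 3 rose. The median was -0.31, against 0.01 for all genes. The box C/D class, which guides methylation, held 26 of the falls among 61 members and no rise, with a median of -0.37. The box H/ACA class, which guides pseudouridylation, held 13 falls and 3 rises among 46, with a median of -0.14, and the Cajal body class 3 falls among 10. SNORD56 signal was 7.66, 7.44 and 7.57 in Wip1SH, against 8.76, 8.45 and 8.45 in WT. The groups were well apart (-0.998 ± 0.11, adjusted p = 0.000112). SNORD57 was 6.37, 6.68 and 6.22 in Wip1SH, against 7.53, 7.24 and 7.35 in WT (-0.95 ± 0.13, adjusted p = 0.000367). SNORD96A was 6.69, 6.88 and 6.86 in Wip1SH, against 7.90, 7.84 and 7.88 in WT (-1.06 ± 0.12, adjusted p = 0.000122). Of the 3 that rose SNORA71C had the largest fitted rise of all genes tested. It was not detected on any WT array and was 7.27, 7.20 and 7.49 in Wip1SH, against 5.26, 5.39 and 5.48 in WT, at least 3.17-fold higher in Wip1SH (adjusted p = 3.07e-07).

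Most hosts of the snoRNAs that fell did not pass the test themselves, as was true of most genes tested. A host gene here is any tested gene whose RefSeq span on GRCh38.p14 holds the snoRNA. Strand was not considered, so some may only overlap it on the opposite strand, and a snoRNA can have several. By this rule 89 of the 117 snoRNAs lay within 60 tested hosts. The 60 hosts had a median of 0.01, with 13 higher and 7 lower, against -0.32 for the snoRNAs within them. For 35 snoRNAs that fell there were 24 hosts, of which 4 fell, 3 rose and 17 did not pass the test, with a median of 0.01. Over all genes 15.4% fell and 16.8% rose, so these hosts were called about as often as genes in general. SNORD21 lay within both RPL5 and DIPK1A, and DIPK1A (0.29) is among the 3 hosts that rose. SNORD56 and SNORD57 lie in NOP56, which encodes a protein of the same box C/D particles. NOP56 was 13.04, 13.19 and 13.06 in Wip1SH, against 13.41, 13.42 and 13.31 in WT, a fall of 0.29 (adjusted p = 0.0156), and leaving out Wip1SH 1 or Wip1SH 3 ended that call, as did detected probes in the fit and equal medians over all probes. SNORD14C and SNORD14D lie in HSPA8, which fell by 0.55. SNORD22, SNORD25, SNORD30 and SNORD31 fell within SNHG1, a noncoding host that rose by 0.34. With detected probes in the fit 10 of 117 snoRNAs fell, against 429 of all 11785 genes. With equal medians over all probes 11 fell, against 342 of all 11785 genes. Whether these probes read mature snoRNA or unspliced host RNA was not tested.

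**Figure D4:**
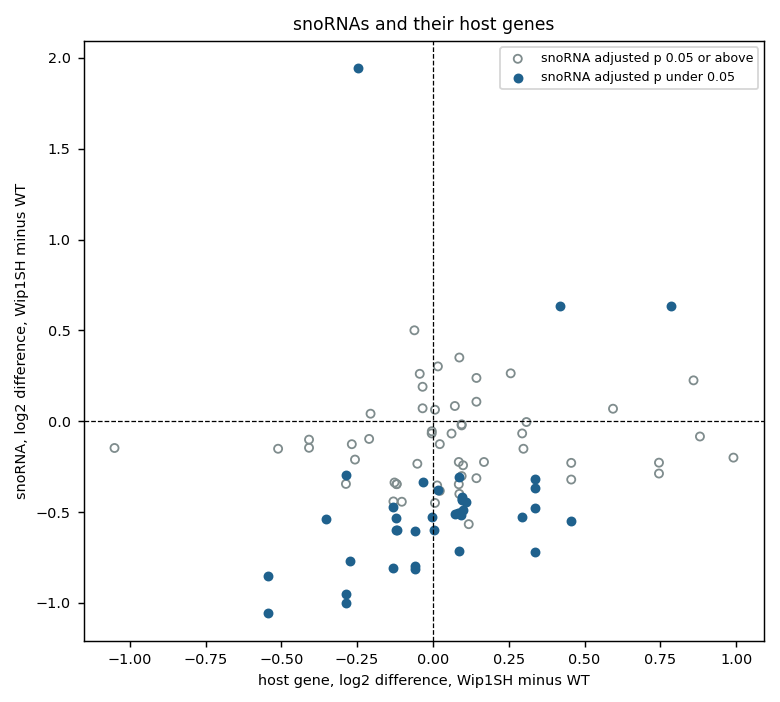
Difference Wip1SH minus WT in log2 of each snoRNA (vertical) against that of its host gene (horizontal), 1 point per pair of snoRNA and tested host; filled points are snoRNAs whose adjusted p was under 0.05 and dashed lines mark 0. All but 3 filled points lie below 0, while their hosts lie on both sides of it.

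Beyond the lists, the largest falls were few and steep. CLPTM1, a multipass membrane protein of the endoplasmic reticulum, was 7.80, 8.27 and 7.97 in Wip1SH, against 10.89, 10.99 and 10.91 in WT, the most negative difference of all genes tested (-2.92 ± 0.11, adjusted p = 6.01e-08). TGM2, tissue transglutaminase, was 7.27, 7.22 and 7.30 in Wip1SH, against 8.81, 8.85 and 8.86 in WT (-1.58 ± 0.09, adjusted p = 6.89e-07). NT5E, encoding the surface nucleotidase CD73, was 9.41, 9.29 and 9.43 in Wip1SH, against 10.81, 10.69 and 10.68 in WT (-1.35 ± 0.09, adjusted p = 5.87e-06). All 3 genes kept the groups apart by more than 1 unit. CYP24A1, which inactivates vitamin D, differed by -1.41 ± 0.15 and CYP26B1, which breaks down retinoic acid, by -1.35 ± 0.07. The nuclear receptor NR2F1 (-1.40 ± 0.12), the metalloprotease ADAM19 (-1.48 ± 0.12), the chondroitin synthesis factor CHPF (-1.35 ± 0.10) and DGCR6 (-1.36 ± 0.10) fell to a like degree. CACYBP, a calcyclin-binding protein, differed by -1.42 ± 0.11 on its brightest probe and by 0.03 on a dim one. Among the 25 largest rises outside the lists were LURAP1L (1.35 ± 0.11), PTPDC1, a phosphatase (1.35 ± 0.11), REEP3, which shapes the endoplasmic reticulum in mitosis (1.28 ± 0.14), and CCPG1, an autophagy receptor of the endoplasmic reticulum (1.23 ± 0.11, with -0.18 on a dim probe). FGG, the fibrinogen gamma chain, was not detected on any WT array and was at least 1.62-fold higher in Wip1SH (adjusted p = 3.93e-05).

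Not all calls of single genes named in the text held when arrays were set to equal medians over all probes or when detected probes were in the fit. The calls of BLM, CDC45, CHEK1, COL1A1, DNMT1, ERRFI1, KRT8, NOP56, PHGDH, PPM1F, PPM1G, PPM1H, PPM1K, PSMA4, RAD54L, SKP2, TAB1, TAGLN, THBS1, TUBA1B, TUBB2A and UNG were lost both with equal medians over all probes and with detected probes in the fit. With equal medians over all probes, but not with detected probes in the fit, ABRAXAS1, BAMBI, BUB1, CCNB1, CRELD2, CTH, ERBB2, FOXM1, MCM4, MCM6, MCM7, MSX1, MYC, PODXL, TK1, TOP2A, TUBB and TUBB3 lost theirs. With detected probes in the fit, but not with equal medians over all probes, the calls lost were those of AARS1, ARRDC3, ATF4, CHAF1A, CLDN7, DUSP4, DUSP5, EPCAM, ESRP1, FOS, GARS1, GDF15, HSPE1, KLF3, MVD, NOTUM, PLK1, PMAIP1, PPM1A, RMI2, SMAD6, SNHG1, TGFA and XPC. HEY1 lost its call with the mean of its probes.

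The same depletion was measured in cells whose ATM was inhibited, on 6 arrays that the first comparison does not share. In Wip1SH+ATMi against WT+ATMi cells 1232 genes were higher (10.5%) and 1263 lower (10.7%), 21.2% of all genes. PPM1D differed by -1.85 there. Of the 1976 genes that rose without inhibitor 758 (38.4%) also rose with it, 18 fell and 1200 did not pass the test. Of the 1818 that fell 752 (41.4%) also fell, 79 rose and 987 did not pass. Those shared calls were 61.5% of the rises and 59.5% of the falls with inhibitor.

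Whether the depletion effect itself differed was tested as the difference of the differences, with inhibitor minus without. It passed for 367 genes (3.11%), of which 291 were also called in Wip1SH against WT. Among those, 94 had risen without inhibitor, and the value with inhibitor lay lower in 89 of them. A further 197 had fallen, and the value with inhibitor lay higher in 185 of them. The difference subtracts the same value by which these genes were called, and that selection alone favours smaller effects with inhibitor. These counts therefore cannot tell whether the effect weakened with inhibitor. Counts of list members with inhibitor, and of tested differences within lists, come from the main fit alone. Whether they hold under other scaling or with detected probes in the fit was not tested. In the main fit mitotic falls persisted: 34 of 59 fell with inhibitor (median -0.34), 32 of them in both comparisons, and no member passed the test of the difference. The ATF4 response also recurred, with 20 of 30 higher (median 0.35), 19 of them in both, and CREBRF as the 1 member whose effect differed (-0.73, adjusted p = 0.0319). Few of the snoRNA falls of the main fit recurred in it with inhibitor. With inhibitor 4 of 117 fell and 11 rose (median 0.11), and the difference passed for 23. SNORD56 differed by -0.998 without and -0.07 with inhibitor (difference 0.92, adjusted p = 0.0124). DNA replication stood between, with 12 of 43 lower and 3 tested differences, MCM5 among them (-1.05 without and -0.41 with inhibitor, adjusted p = 0.0223). Of 12 tubulins 0 fell with inhibitor and 1 rose, and none passed the test of the difference.

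**Figure D5:**
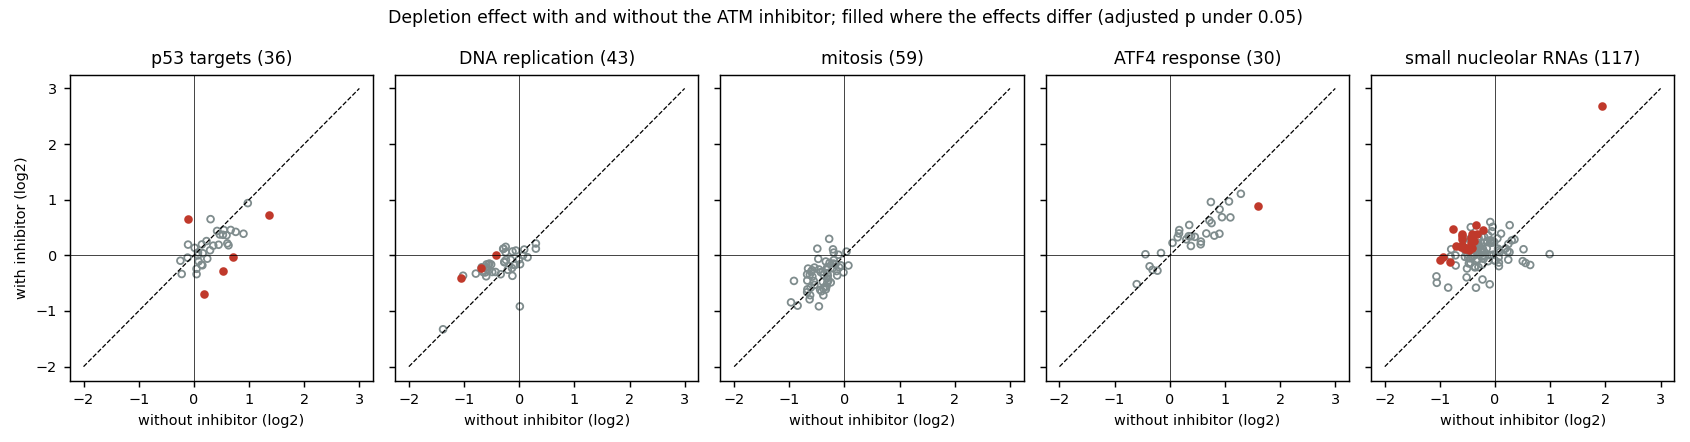
Depletion effect without inhibitor (Wip1SH minus WT, horizontal) and with inhibitor (Wip1SH+ATMi minus WT+ATMi, vertical), in log2, for the members of 5 lists, 1 panel each; filled points are genes whose effect differed between the settings at an adjusted p under 0.05 and the diagonal marks equal effects. No mitosis point is filled, and every filled snoRNA point lies above the diagonal.

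EGR1 was among the 10 genes called in Wip1SH against WT with the smallest p of this difference. With inhibitor its signal was 11.15, 11.02 and 11.14 in Wip1SH+ATMi, against 10.57, 10.75 and 10.50 in WT+ATMi, a difference of 0.50 in place of 1.58 (difference -1.08, adjusted p = 0.00232). FOS rose by 1.01 without inhibitor, against a value of -0.46 with it that did not pass the test (difference -1.47, adjusted p = 0.0176). Among p53 targets GADD45A (-0.64), TP53INP1 (-0.75) and GDF15 (-0.80) had smaller effects with inhibitor, and TP53I3, a quinone oxidoreductase, did not pass the test without inhibitor (0.19, although the mean of its probes, at 0.29, did) and fell with it (-0.70; difference -0.89, adjusted p = 0.00698). Larger effects with inhibitor were found for CDK6, with -1.90 in place of -1.17 (adjusted p = 0.0135), and for DUSP5, with 1.21 in place of 0.44 (adjusted p = 0.0092). The smallest p of the difference belonged to LMOD3, an actin nucleator of muscle, which was 8.24, 8.41 and 8.38 in Wip1SH, against 9.03, 8.93 and 8.998 in WT and, with inhibitor, 9.02, 8.85 and 8.87 in Wip1SH+ATMi, against 8.24, 8.35 and 8.28 in WT+ATMi (adjusted p = 0.00115). The membrane transporter gene SLC4A11 (-0.70 without and 0.25 with inhibitor) and ABRAXAS1, the scaffold of the BRCA1-A complex (-0.62 and 0.50), likewise fell without and rose with inhibitor. The count of 367 was 161 to 319 with 1 array left out, and it was more than 1.5 times lower without Wip1SH 1 or 3, WT 3, any of the Wip1SH+ATMi arrays, or WT+ATMi 1 or 3. With detected probes in the fit it was 231, and with no background correction 572.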

How the data were processed

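Total RNA of HCT116 cells was labelled as biotin cRNA and read on 1-colour Illumina bead arrays, per the labels' protocols. The deposited probe signals are intensity values without normalization, and a detection p-value follows each signal, per the file headers. The log2 values, as deposited, differed by at most 5e-06 from neqc values of limma 3.58.1 (R 4.3.3) computed from those signals: quantile-normalized log2 signals after a background correction that reads the detection p-values, with 16 added. The scanner software and the authors' normalization method are not given in the sources used here.

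Of 47323 probes, 30113 had 1 gene symbol in the platform's table, 8 several and 17202 none, and 30074 were matched to RefSeq genes (GRCh38.p14) by entrez identifier. Probes with a detection p under 0.05 on at least 3 of 12 arrays were kept (21202, of which 15772 were named). The probe with the highest mean over all arrays stood for each gene (3150 genes had several), which left 11785 genes. One mean per group was fitted to all 12 deposited log2 arrays with limma (lmFit and eBayes), so the 4 groups share 1 estimate of spread. All tests were two-sided, and p-values were adjusted over all genes by the Benjamini-Hochberg method, with a threshold of 0.05. Where no named probe of a gene was detected in a group, its fold is printed as a bound ("at least"): the brighter group's mean over the dimmer group's, with each dim array raised to the lowest signal among its detected probes. Precision is limited by the number of arrays, 3 per group.

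The members, the 49 gene lists, the tests and the alternatives were chosen with earlier results of these data known. Named genes were PPM1D, ATM, CDKN1A, MDM2, MYC and EGR1, the 25 largest rises and 25 largest falls whose arrays do not overlap between groups, up to 6 members of each list with the smallest adjusted p, members that fill out a list, and the 10 called genes with the smallest p for the difference with the inhibitor. Not every gene the rule allows is reported here. SNHG1, the host of several snoRNAs, was named outside this rule after its value was seen.

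Alternatives were neqc values, an offset of 50 or no background correction, equal array medians over all or over tested probes, no detection filter or one at 0.01 that all 3 arrays of some group had to meet, array weights, averaging the probes of each gene, a block for the replicate number, only the 6 arrays compared, a fold threshold of 0.5 log2, detected probes as a covariate, and each array left out. The procedure was tested on simulated data. Promoter sequences come from RefSeq.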

Additional observations from a re-analysis of the deposited data

Results flagged for a closer look

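For 27 of the genes described above the depletion effect differed between the settings. The test was the difference of the differences in limma, (Wip1SH+ATMi minus WT+ATMi) minus (Wip1SH minus WT), at an adjusted p under 0.05, and values below are that difference in log2. Each rests on 3 arrays per group.

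In 5 genes whose rise was smaller with inhibitor but still passed the test, the difference was -1.08 for EGR1, -0.94 for ABCA1, -0.80 for MSX2, -0.73 for CREBRF and -0.64 for GADD45A. ABCA1 differed by 0.43 with inhibitor against 1.37 without, and MSX2 by 0.77 against 1.56. Another 4 genes rose without inhibitor and did not pass the test with it: FOS (-1.47), AKR1B10 (-0.91), GDF15 (-0.80) and TP53INP1 (-0.75). TP53I3, which fell with inhibitor only, had a difference of -0.89.

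Among the genes that fell, a weaker fall with inhibitor was seen for MCM5 (0.64), UHRF1 (0.54) and RFC5 (0.46). SNORD56 (0.92), SNORD57 (0.92), COL1A1 (0.64), E2F2 (0.61) and MCM7 (0.42) fell without inhibitor and did not pass the test with it. Opposite calls were made for LMOD3 (1.27), TAGLN (1.17), ABRAXAS1 (1.12) and SLC4A11 (0.94), which were lower in Wip1SH than in WT and higher in Wip1SH+ATMi than in WT+ATMi. TAGLN differed by -0.63 without and 0.55 with inhibitor.

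Larger effects with inhibitor were found in 5 genes. The falls of CHPF (-0.89), CDK6 (-0.73) and IARS1 (-0.52) were deeper, with CHPF at -2.24 against -1.35 and IARS1 at -1.57 against -1.05. The rises of DUSP5 (0.77) and SNORA71C (0.74) were larger, and SNORA71C was not detected on any WT array. More probes were detected with inhibitor than without in each line (19505 to 20408 in Wip1SH+ATMi against 18568 to 18961 in Wip1SH, and 18723 to 19654 in WT+ATMi against 17650 to 17929 in WT), and the part of this in the differences of single genes was not tested.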

How the results depend on the processing

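PPM1D stayed lower in Wip1SH and past the threshold under every alternative run (-1.76 to -1.38). Counts of genes moved most. With equal medians over all probes 3826 genes rose and 342 fell in Wip1SH against WT, and 506 rose and 783 fell in Wip1SH+ATMi against WT+ATMi. With detected probes as a covariate the counts were 457 and 429 without inhibitor and 567 and 616 with it, and 231 for the difference. With a fold threshold of 0.5 log2 (limma's treat) they were 59 and 63 without and 35 and 60 with inhibitor, and 0 for the difference, for which 2194 genes had an unadjusted p under 0.05 in the test without that threshold. No background correction gave 572 for the difference, and leaving out 1 array 161 to 319. With equal medians over all probes, detected probes as a covariate and the fold threshold, in that order, 25, 9 and 2 p53 targets rose, and 8, 13 and 2 DNA replication genes, 8, 15 and 2 mitosis genes and 11, 10 and 3 snoRNAs fell. The ATF4 count was 6 with the fold threshold and 14 to 22 under the others. Leaving out 1 array gave 14 to 19 p53 targets, 21 to 24 replication genes, 33 to 41 mitosis genes and 35 to 45 snoRNAs. Signs turned for CDKN1A (-0.10 with equal medians over tested probes, -0.072 with the covariate), MDM2 (0.13 with equal medians over all probes, and -0.22 to 0.089 with 1 array left out, the sign turning without WT 3) and UNG (0.046 with equal medians over all probes). Of 167 genes called and described, 102 kept their call under all 24 alternatives other than the fold threshold, 40 lost it with equal medians over all probes, 46 with the covariate and 8 on leaving out 1 array. The cause was not tested. Same-numbered Wip1SH and WT arrays deviated together only weakly (correlations 0.061, 0.071 and 0.141). With 3 arrays per group such values cannot show whether the numbers pair the arrays. With the replicate block 1958 genes were higher and 1751 lower. In that fit 15 p53 targets rose, 22 replication genes, 38 mitosis genes and 41 snoRNAs fell, and PPM1D differed by -1.66. The headers name no slides, so slide as a block was not run.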
